A study of Homo sapiens with 5 samples.

Results

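The miR-99/100 and miR-125 families were followed through 5 probes (hsa-miR-99a, hsa-miR-99b, hsa-miR-100, hsa-miR-125a-5p and hsa-miR-125b), chosen by name as the partners of let-7 genes in their clusters, out of 654 human miRNA probes and 734 miRNA probes in all. Mature miRNAs were measured with NanoString's nCounter Human v2 assay, which counts fluorescent barcodes tied to single target molecules and needs no amplification step. The cells were Caco2, a line from a human colorectal tumour that grows as a polarised epithelial layer, infected and selected with an shRNA against PLEKHA7 (shPLEKHA7, replicates 1, 2 and 3, n = 3) or with a non-target shRNA (NT, replicates 1 and 3, n = 2). Both groups therefore carried an shRNA vector and had been through selection, and the RNA came from separate sets of infections. Groups followed the sample titles; for 2 of the 3 shPLEKHA7 samples the source label ends in another PLEKHA number. The panel holds no probe for PLEKHA7, so the knockdown itself was not analysed here.

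PLEKHA7 is a protein of the epithelial adherens junction that has been linked to the local processing of miRNAs, and the comparison asks how its depletion changes miRNA levels. miR-99 and miR-100 are close relatives of the miR-10 family and are known as repressors of the growth regulators MTOR and IGF1R. miR-125 is the vertebrate counterpart of lin-4, the first miRNA described in Caenorhabditis elegans, and one of its known targets is LIN28A, the RNA-binding protein that blocks let-7 maturation. In the human genome, genes of both families sit on the same strand as a let-7 gene in shared clusters, and the long noncoding host RNA MIR100HG, with its miR-100 and miR-125b, is known from drug-resistant colorectal cancer cells.

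The mature sequences are shown because they set which members share targets and which a probe may confuse. They are given 5′ to 3′ from RefSeq (GRCh38.p14), with the seed (bases 2 to 8) in capitals, and all 5 probe targets matched a RefSeq mature sequence base for base. miR-10a, a relative whose seed differs, is added for comparison.
hsa-miR-99a: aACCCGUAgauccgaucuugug
hsa-miR-100: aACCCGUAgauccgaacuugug
hsa-miR-99b: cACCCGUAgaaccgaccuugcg
hsa-miR-125b: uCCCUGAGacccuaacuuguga
hsa-miR-125a-5p: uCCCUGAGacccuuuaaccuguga
hsa-miR-10a: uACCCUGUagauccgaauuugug
The members fell into 2 seed groups, 3 with ACCCGUA and 2 with CCCUGAG, and no other human probe on the panel had either seed. miR-99a and miR-100 agree at 21 of 22 bases, and the single difference, counted from 1 at the 5′ end of miR-99a, is U16A. miR-99b differs from miR-99a at 4 positions (A1C, U11A, U16C and U21C). miR-125a-5p and miR-125b share their first 13 bases. Whether the probes separate such near-identical molecules was not tested, so levels of miR-99a and miR-100 in particular remain uncertain.

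In RefSeq GRCh38.p14, MIR100 (chr11:122152275-122152296, minus strand, mature arm) lies with MIRLET7A2 and MIR125B1 inside the long noncoding gene MIR100HG, over 52.5 kb between the outer mature sequences. MIR99A (chr21:16539101-16539122, plus strand) lies with MIRLET7C and MIR125B2 inside the long noncoding gene MIR99AHG, over 51.2 kb. MIR99B (chr19:51692618-51692639, plus strand), MIRLET7E and MIR125A (chr19:51693268-51693291) are packed into 674 bases within the span of the protein-coding gene SPACA6. miR-125b is made from both MIR125B1 and MIR125B2, and let-7a from 3 genes, so neither probe speaks for a single cluster.

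All 5 members had low raw counts in these cells, from 2 to 39. A probe was called detected in a lane if it was counted more often than the mean of the 8 negative-control probes there plus 2 SD, a limit that ran from 11 to 24.5 counts (24.5, 11 and 20.2 in shPLEKHA7 replicates 1, 2 and 3, and 13.4 and 20.6 in NT replicates 1 and 3). miR-125b was detected in 4 of 5 lanes, miR-99a in 2, miR-100 in 1, and miR-99b and miR-125a-5p in 0. For scale, 389 of the 654 human probes (59.5%) were above the limit in no lane and 121 in all 5. By mean count after scaling to lane totals, miR-125b and miR-99a ranked 137 and 138 among the human probes, miR-100 ranked 192, miR-99b 420 and miR-125a-5p 602. Probes can differ in how well they capture their target, so this order is one of counts and not of molecules.

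The lanes held 32138 to 58298 miRNA counts in all, and the positive-control spike-ins totalled 10670 to 14239 in the shPLEKHA7 lanes and 7686 to 10656 in the NT lanes. As numbered in the sample descriptions, both NT lanes precede the shPLEKHA7 lanes, so group and position cannot be told apart. Of 8 markers of epithelium and intestine, 7 were detected in all lanes, with summed counts of 1426 to 2886 in shPLEKHA7 and 1747 to 2368 in NT lanes, as the cell line's label implies. miR-215, the marker of the 8 not detected in all lanes, was called higher in shPLEKHA7, with a log2 fold change of 1.22 (SE 0.31, edgeR adjusted p = 0.048). Its counts were below the limit in both NT lanes, so it entered the test through shPLEKHA7 lanes alone. The direction of its difference is thus partly set by the filter, which asked for 2 lanes above the limit. The size of its fold is not measured. miR-200a, miR-200b and miR-200c were lower in shPLEKHA7 without overlap and were not called. miR-141, miR-192, miR-194 and miR-429 overlapped between the groups and were not called. Of all tested probes, 2.45% were called higher and 48% did not overlap. Of 6 stromal markers, miR-143, miR-199a-5p, miR-199b-5p and the joint probe of miR-199a-3p and miR-199b-3p were detected in no lane. The other two, miR-145 and miR-214, were tested and not called. miR-214 averaged 38.0 ± 13.8 normalized counts in shPLEKHA7 (SD, n = 3) and 21.3 ± 3.2 in NT cells (SD, n = 2), groups that did not overlap, with a log2 fold change of 0.84 (SE 0.34, edgeR adjusted p = 0.162). That of miR-145 was 0.07 (SE 0.41, edgeR adjusted p = 0.958). The 6 stromal probes summed to 66 to 123 counts in shPLEKHA7 and 60 to 75 in NT lanes. Of 6 blood markers, 2 were detected in all lanes and 3 (miR-144, miR-150 and miR-451) in none, with sums of 95 to 157 in shPLEKHA7 and 98 to 135 in NT lanes. The endothelial marker miR-126 was detected in all lanes, at 17 to 56 counts in shPLEKHA7 and 45 to 50 in NT lanes. Of 3 muscle markers, 1 was detected in all lanes and miR-133a in none, with sums of 74 to 113 in shPLEKHA7 and 66 to 80 in NT lanes. The part of these markers in the values of the members was not tested. These are bulk samples, in which fewer cells with a miRNA and less of it per cell cannot be told apart.

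**Figure D1:**
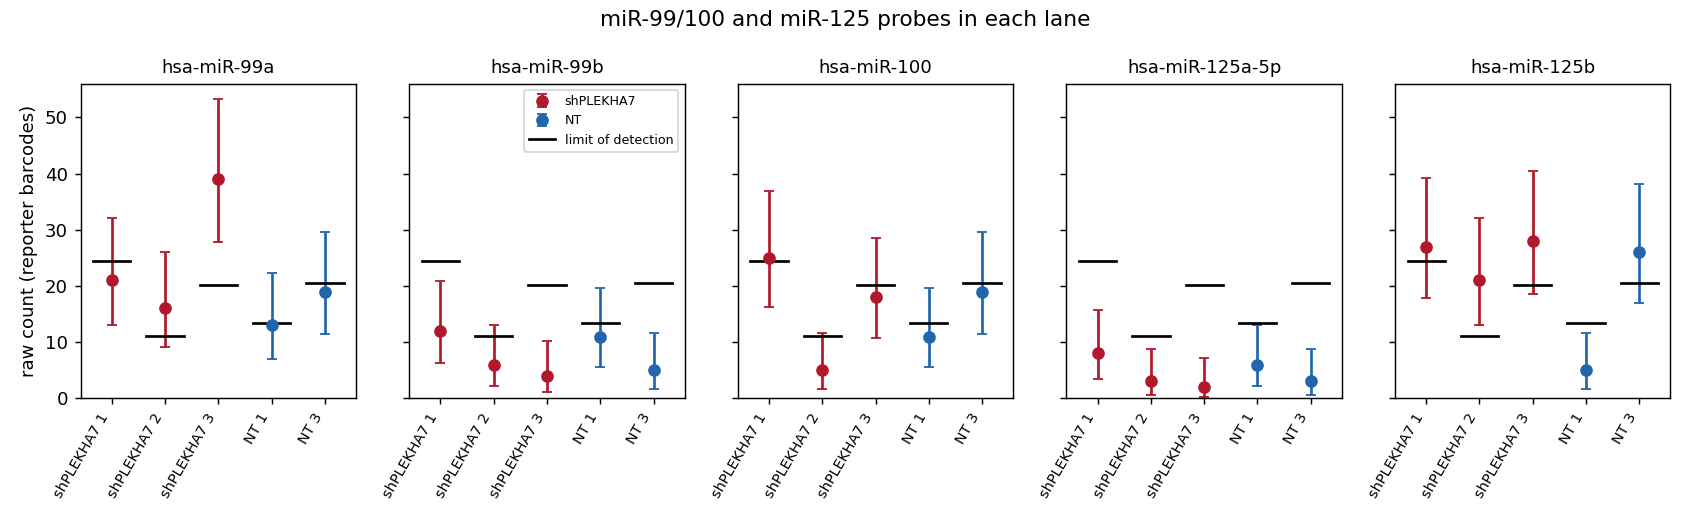
Raw count of each of the 5 probes (vertical axis) in each lane, shPLEKHA7 in red and NT in blue, with exact 95% Poisson intervals as bars and the lane's limit of detection as a black line. miR-99b and miR-125a-5p stay below the line in every lane, and miR-125b falls below it only in NT replicate 1.

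Of the miR-99/100 family, miR-99a was detected in the most lanes, 2 of 5. Its raw counts were 21, 16 and 39 in shPLEKHA7 replicates 1, 2 and 3, against 13 and 19 in NT replicates 1 and 3. It was above the limit in shPLEKHA7 replicates 2 and 3. In shPLEKHA7 replicate 1 it was below, at 0.859 of the limit, as in NT replicates 1 and 3, at 0.969 and 0.923. The exact 95% Poisson intervals, which cover counting error only, ran from 27.7 to 53.3 for the highest lane and from 6.9 to 22.2 for NT replicate 1.

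After TMM scaling (a trimmed-mean scaling of library sizes), miR-99a stood at 19.1, 22.0 and 29.5 normalized counts in shPLEKHA7 lanes and at 16.5 and 17.9 in NT lanes. The scaled groups did not overlap, although the raw counts did; of the 204 miRNA probes tested, 48% had scaled groups that did not overlap in either direction and 26% had shPLEKHA7 above NT throughout. The means were 23.5 ± 5.3 (SD, n = 3) in shPLEKHA7 and 17.2 ± 0.98 (SD, n = 2) in NT cells. The log2 fold change of miR-99a was 0.47 (SE 0.30, 95% interval -0.21 to 1.15). It did not pass the edgeR quasi-likelihood test (adjusted p = 0.384). miR-99a entered that test through shPLEKHA7 lanes alone, so the direction of its difference is partly set by the filter, which asked for 2 lanes above the limit. The fold is set against NT counts below the limit, although above every negative control of their lanes, so its size is not measured. Under spike-in scaling the log2 fold change of miR-99a was 0.15 (SE 0.35).

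miR-100 differs from miR-99a by the single base given above. Its counts were near those of miR-99a in shPLEKHA7 replicate 1 and NT replicates 1 and 3, and lower in shPLEKHA7 replicates 2 and 3. It had 25, 5 and 18 raw counts in shPLEKHA7 replicates 1, 2 and 3, against 11 and 19 in NT replicates 1 and 3. The 25 counts in shPLEKHA7 replicate 1 were just above that lane's limit of 24.5, and the other 4 lanes were below theirs. The shPLEKHA7 values lay on both sides of the NT values, with 14.4 ± 8.0 normalized counts (SD, n = 3) in shPLEKHA7 and 15.9 ± 2.8 (SD, n = 2) in NT cells. In shPLEKHA7 replicate 2, where miR-99a reached 16 counts, miR-100 had 5, a level that 4 of the 8 negative controls of the lane matched or exceeded.

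miR-99b, the member of the compact chromosome 19 cluster, had 12, 6 and 4 raw counts in shPLEKHA7 replicates 1, 2 and 3, against 11 and 5 in NT replicates 1 and 3. Every value was below the lane's limit and at or below its highest negative control. Between 1 and 6 of the 8 negative controls matched or exceeded it in each lane, so no level of miR-99b above background was shown in either group.

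Taken as a sum, the 3 probes of the miR-99/100 family had 58, 27 and 61 raw counts in shPLEKHA7 lanes, against 35 and 43 in NT lanes. The limits of the 3 probes summed to 73.4, 33.0 and 60.6 in shPLEKHA7 lanes and 40.2 and 61.8 in NT lanes. The family sums were 0.121%, 0.0840% and 0.105% of the miRNA counts of the shPLEKHA7 lanes, against 0.1002% and 0.0854% in NT lanes. These shares include background counts. The shares overlap, with shPLEKHA7 replicate 2 lowest and shPLEKHA7 replicate 1 highest.

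In the miR-125 family, miR-125b was the only member detected in most lanes. Its raw counts were 27, 21 and 28 in shPLEKHA7 replicates 1, 2 and 3, against 5 and 26 in NT replicates 1 and 3. NT replicate 1 was the low lane, below its limit of 13.4 and matched or exceeded by 5 of its 8 negative controls. NT replicate 3 lay within the range of the shPLEKHA7 lanes.

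On the normalized scale miR-125b stood at 24.6, 28.8 and 21.2 in shPLEKHA7 lanes and at 6.3 and 24.4 in NT lanes. Means were 24.9 ± 3.8 (SD, n = 3) in shPLEKHA7 and 15.4 ± 12.8 (SD, n = 2) in NT cells, so the spread between the NT lanes exceeded the difference of the means. The log2 fold change was 0.56 (SE 0.43, 95% interval -0.40 to 1.53). miR-125b did not pass the edgeR test (adjusted p = 0.493). That value rests on 1 library. Without NT replicate 1 it was -0.0037 (SE 0.31, adjusted p = 0.996), and without NT replicate 3 it was 1.97 (SE 0.50, adjusted p = 0.0644), where the lone NT lane is assumed to vary like the shPLEKHA7 lanes. Under spike-in scaling, with all samples, it was 0.24 (SE 0.36).

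Of the 204 tested probes, 29, 29 and 38 had their lowest normalized count in shPLEKHA7 replicates 1, 2 and 3, and 60 and 48 in NT replicates 1 and 3. In NT replicate 1, 4 probes were at under 0.5 of their normalized level in every other lane: miR-125b, miR-320a and the viral probes ebv-miR-BART16 and hsv1-miR-H8. The same count for NT replicate 3 was 1 (miR-601). These probes were found after their values were seen. NT replicate 1 also had the lowest spike-in total, 7686. The 2 spike-ins with the fewest counts had 10 to 23 counts in shPLEKHA7 lanes and 5 to 16 in NT lanes. The part of lane efficiency in the miR-125b value was not tested.

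miR-125a-5p, which shares its seed with miR-125b and its cluster with miR-99b, had 8, 3 and 2 raw counts in shPLEKHA7 replicates 1, 2 and 3, against 6 and 3 in NT replicates 1 and 3. In each lane between 4 and 8 of the 8 negative controls matched or exceeded it. The probe for the other arm of its hairpin, miR-125a-3p, stood at 1 in all 5 lanes, as did 12 miRNA probes in all. The table holds 0 values of 0, so a value of 1 may be a floor set before deposit and not a measured count, which the sources used here do not state. The 2 probes of the miR-125 family summed to 35, 24 and 30 raw counts in shPLEKHA7 lanes, against 11 and 29 in NT lanes. Their limits summed to 48.9, 22.0 and 40.4 in shPLEKHA7 lanes and 26.8 and 41.2 in NT lanes. miR-125b made up most of each sum of counts except in NT replicate 1.

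Of the 5 members, then, 2 were tested (miR-99a and miR-125b) and 0 were called in either direction, where the edgeR fit called 6.37% of all tested probes (13 of 204), 2.45% higher and 3.92% lower. That background itself moved with the setting, to 1 probe without NT replicate 1, 0 without NT replicate 3 and 33 under spike-in scaling. At an unadjusted p under 0.05 the fit held 48 probes and 0 members. Limma on the deposited values called 0 members too, with an adjusted p of 0.154 for miR-125b and 0.703 for miR-99a. DESeq2 gave neither an adjusted p, and its log2 fold changes were 0.57 (SE 0.52) for miR-125b and 0.43 (SE 0.48) for miR-99a. The log2 fold changes of the 2 tested members can be set beside a median of 0.06 over all tested probes, of which 115 were above 0. At this level the fit was wide: over the 80 tested probes with a mean of 15 to 30 normalized counts, a range set after the data were seen, the median SE was 0.33, and 4 of them were called. With no filter, all 5 members could be fitted among 734 probes. miR-100, miR-99b and miR-125a-5p then had log2 fold changes of -0.26 (SE 0.39), -0.46 (SE 0.52) and -0.39 (SE 0.55), with edgeR adjusted p of 0.921, 0.876 and 0.922, on counts of which the 25 of miR-100 in shPLEKHA7 replicate 1 alone exceeded the limit.

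**Figure D2:**
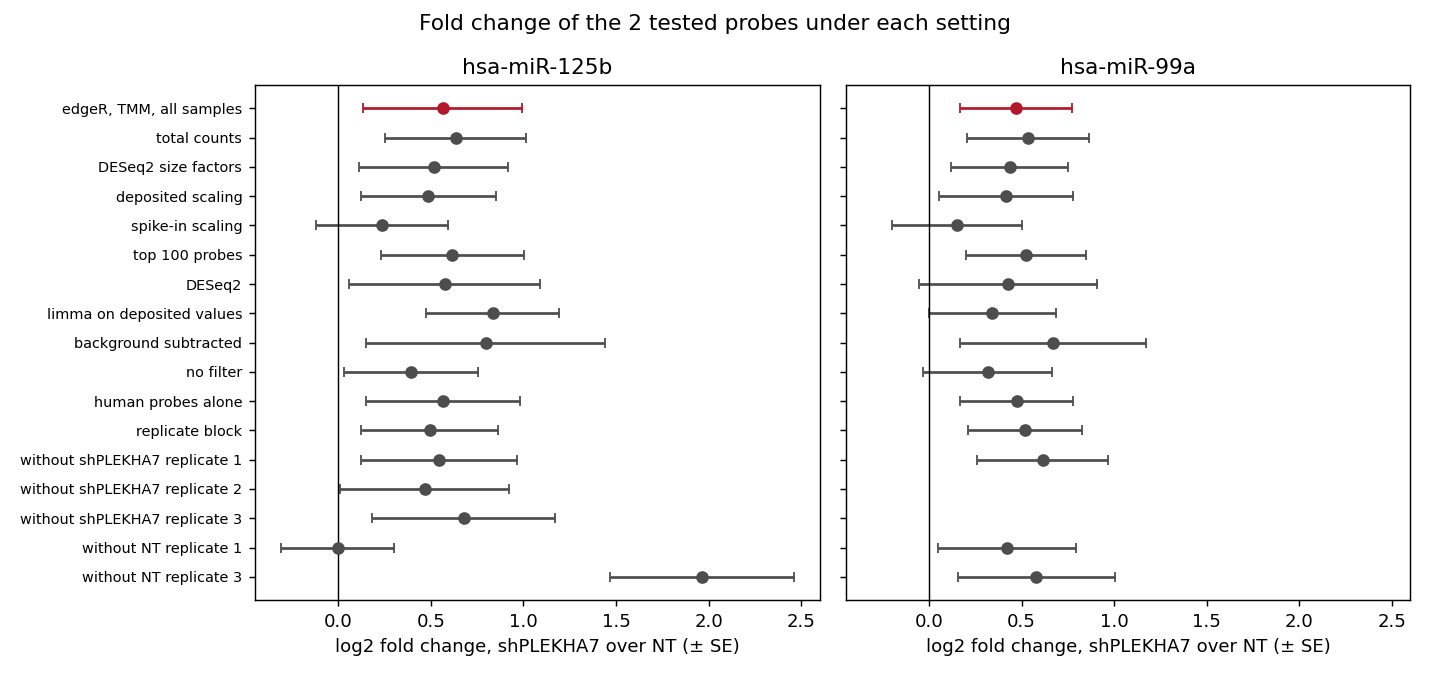
Log2 fold change of miR-125b (left) and miR-99a (right), shPLEKHA7 over NT, with bars of 1 SE, under the fixed test (red, top) and each alternative (grey). Points lie above 0 in every setting shown except miR-125b without NT replicate 1, at -0.0037, while miR-125b without NT replicate 3 stands at 1.97; miR-99a has no point where it was not tested.

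The let-7 partners differed in how far they stood above background. let-7a is also made from genes outside the miR-100 cluster, so its counts do not speak for that cluster alone. let-7 miRNAs are repressors of RAS genes and of HMGA2. let-7a, the partner of miR-100, had 531, 416 and 763 raw counts in shPLEKHA7 lanes, against 458 and 538 in NT lanes. Its log2 fold change was 0.004 (SE 0.14, edgeR adjusted p = 0.998), with a 95% interval of -0.31 to 0.32. let-7a stood at 21.7, 37.8 and 37.8 times the limit in shPLEKHA7 lanes and 34.2 and 26.1 times in NT lanes, whereas miR-100 stood at 1.02, 0.454 and 0.891 times the limit in shPLEKHA7 lanes and 0.82 and 0.923 in NT lanes.

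let-7c, whose only gene lies beside MIR99A, had 31, 23 and 26 raw counts in shPLEKHA7 lanes, against 18 and 24 in NT lanes. It exceeded the limit in all 5 lanes, reaching no more than 2.09 times it, and its log2 fold change was 0.18 (SE 0.28, edgeR adjusted p = 0.757). The sequence of let-7c differs from that of let-7a at a single base. Mean counts scaled to lane totals were 25.1 for let-7c and 544.9 for let-7a. Whether the let-7c probe separates them was not tested, so the level of let-7c is uncertain. In NT replicate 1, where miR-125b fell to 5, let-7c kept 18 counts and miR-99a 13. Relative to let-7c, miR-125b was at log2 -0.20, -0.13 and 0.11 in shPLEKHA7 lanes and at log2 -1.85 and 0.12 in NT lanes, so only NT replicate 1 stood apart.

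let-7e, the middle gene of the chromosome 19 cluster, stood at 1 in all 5 lanes, like miR-125a-3p, the value that may be a floor. The other two probes of that cluster, miR-99b and miR-125a-5p, were below the limit in every lane of both groups. Of the 9 probes of the let-7/miR-98 family, 8 were detected in all lanes and tested, let-7e being the exception; 0 were called higher and 1 lower (let-7g), against 3.92% of all tested probes called lower.

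**Figure D3:**
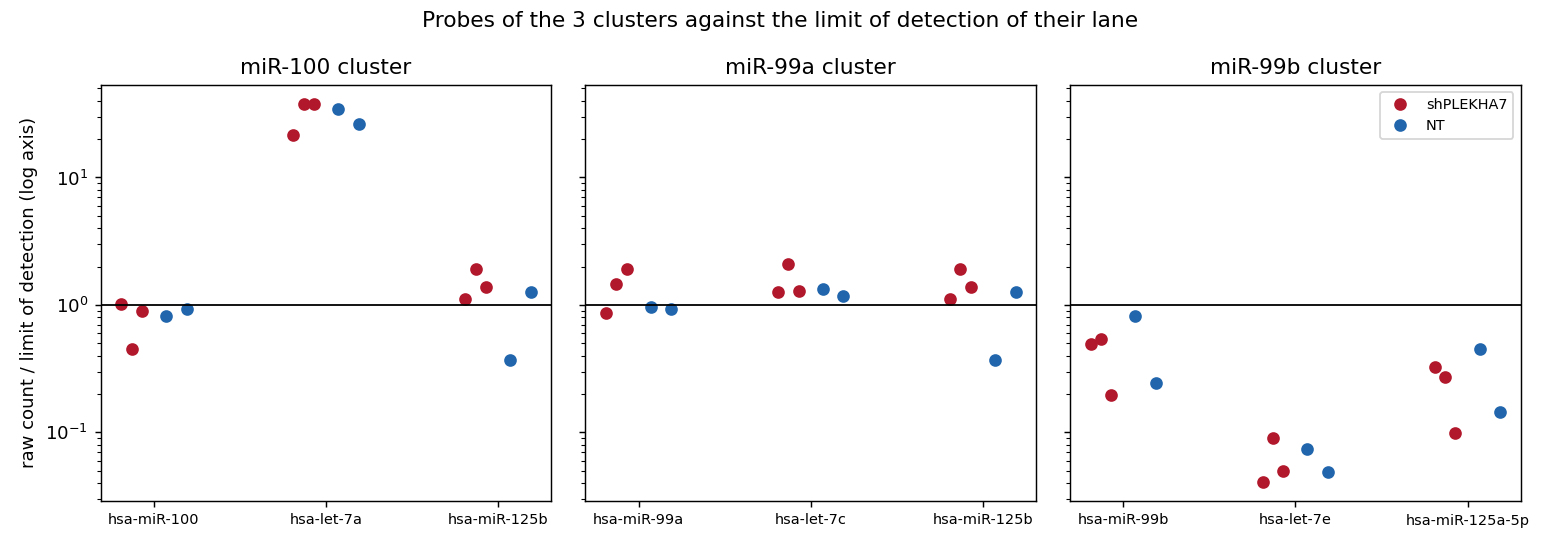
Raw count divided by the lane's limit of detection (log axis, 1 marked by the line) for the probes of each cluster, with 3 shPLEKHA7 lanes in red and 2 NT lanes in blue per probe. let-7a lies at 21.7 to 37.8 times the limit, let-7c at no more than 2.09 times, and the probes of the miR-99b cluster lie below it, with let-7e at a value of 1 that may be a floor; miR-125b appears in both panels of its genes, which feed 1 probe.

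Of the relatives outside the seed groups, miR-10a, encoded inside HOXB3, was detected in all lanes, with 56, 39 and 54 raw counts in shPLEKHA7 and 55 and 46 in NT lanes. Its log2 fold change was -0.21 (SE 0.25, edgeR adjusted p = 0.658). miR-10b had 18, 5 and 14 raw counts in shPLEKHA7 lanes, against 16 and 15 in NT lanes, was detected only in NT replicate 1, and was not tested.

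A further yardstick for such low counts was the 80 viral miRNA probes of the panel, for viruses whose presence in these cells was not analysed here. Their median was 9, 7 and 9 counts in shPLEKHA7 lanes and 6 and 7 in NT lanes, close to the negative-control means of 11.1, 4.5 and 8.5 in shPLEKHA7 lanes and 6.1 and 7.5 in NT lanes. Yet 10, 20 and 13 viral probes exceeded the limit in shPLEKHA7 lanes and 11 and 7 in NT lanes, and 6 (7.5%) exceeded it in all 5. Of the 80, 15 exceeded it in at least 2 lanes, the rule for testing that miR-99a met with 2. The 204 tested probes are thus 189 human and 15 viral probes. By mean scaled count 8 viral probes were higher than miR-125b, 8 higher than miR-99a, 15 higher than miR-100, 37 higher than miR-99b and 67 higher than miR-125a-5p.

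**Figure D4:**
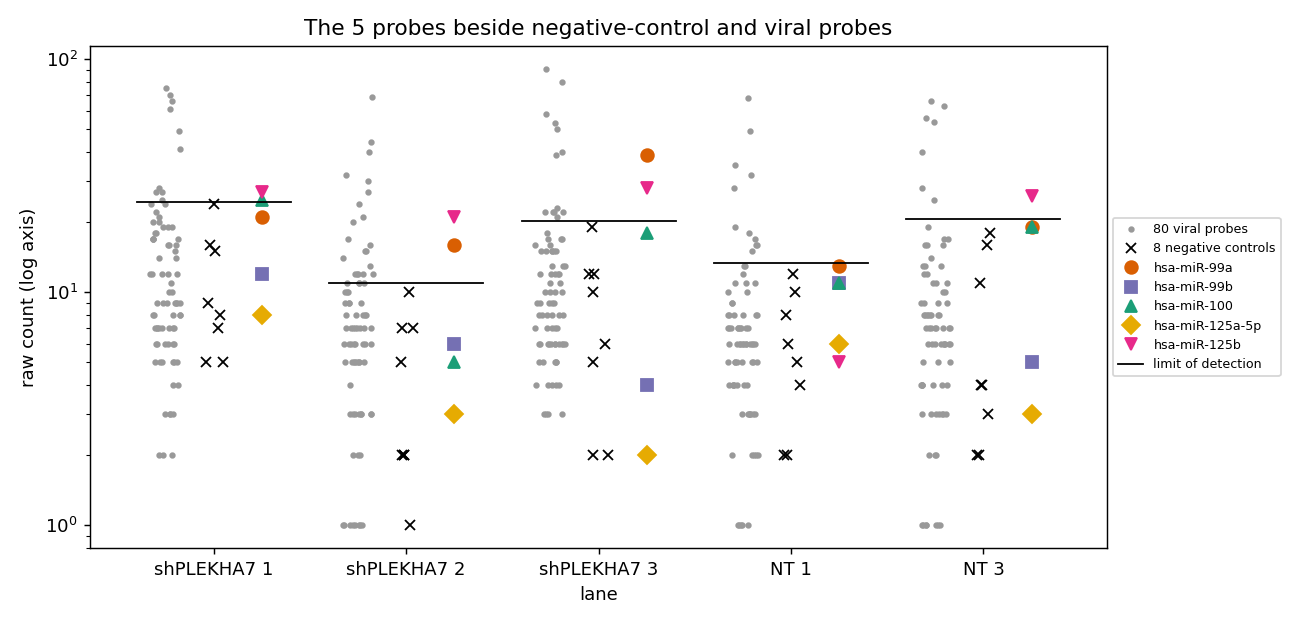
Raw counts (log axis) of the 5 members, the 8 negative controls (crosses) and the 80 viral probes (grey) in each lane, with the limit of detection as a line. miR-125b and miR-99a lie near or above the line among the higher viral probes, except miR-125b in NT replicate 1, while miR-99b and miR-125a-5p lie among the negative controls in every lane.

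The patterns of the 2 tested members across lanes were set against those of the other tested human probes. Likeness was measured as the root mean square distance over the 5 lanes between log2 normalized counts centred on each probe's mean, with a prior count of 2 added. miR-125b and miR-99a lay 0.61 apart, which placed miR-125b at rank 167 of 188 among the neighbours of miR-99a and miR-99a at rank 58 of 188 among those of miR-125b. The median distance to all 188 was 0.38 for miR-99a and 0.72 for miR-125b. The probes nearest to miR-99a were miR-210, known for its response to hypoxia, at 0.087, and miR-455-3p at 0.11. miR-210 had 20, 16 and 40 raw counts in shPLEKHA7 lanes and 14 and 22 in NT lanes, and neither neighbour was called (adjusted p of 0.622 and 0.275 by edgeR). The probes nearest to miR-125b were miR-566 at 0.38 and miR-1274a at 0.38, which is less close; miR-1274a had 766, 574 and 974 raw counts in shPLEKHA7 lanes and 342 and 763 in NT lanes. let-7c, which lies in a cluster with both, was at 0.40 from miR-99a and 0.63 from miR-125b. Counts of this size carry large counting error, so these distances describe the 5 lanes and nothing more.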

How the data were processed

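The deposited raw table holds raw counts as whole numbers, one lane per column per the file headers; exporting software and build are not given in the sources used here. The authors also deposited a table of normalized signal values, of which 100% of human values lay within 0.02 of a single lane factor multiplied by the raw count. That factor brought the geometric mean of the 5 housekeeping mRNA probes to 1802.18 in every lane. Viral values were left unscaled. Its 10 baseline and fold columns were not used. Probes above the mean plus 2 SD of the negative controls in at least 2 lanes (204 of 734) were tested with edgeR 4.0.16 (quasi-likelihood, TMM on the tested probes, R 4.3.3), Benjamini-Hochberg adjusted over all of them, adjusted p under 0.05. The SE divides the size of the log2 fold change by the root of F. Alternatives used DESeq2 1.42.0, limma 3.58.1 (pseudocount 1), other scalings, filters and left-out samples. Replicates are separate infections per the labels. Precision at these depths is limited by counting error, and for miR-125b also by the spread between the NT lanes. The probes named besides the members were let-7 cluster partners, miR-10 relatives, other arms, nearest patterns, let-7 family members and cell type markers; miR-320a, miR-601 and 2 viral probes were named after their values were seen. Members and lists were chosen with earlier results of these data known.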

Additional observations from a re-analysis of the deposited data

How the results depend on the processing

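No member was called under any setting run. With all samples kept, the log2 fold change of miR-125b ran from 0.24 (spike-in scaling) to 0.83 (limma on the deposited values, human probes alone) and that of miR-99a from 0.15 (spike-in scaling) to 0.67 (background subtracted). With a sample left out, miR-125b ran from -0.0037 (without NT replicate 1) to 1.97 and miR-99a, tested in 3 of these 5 fits, from 0.42 to 0.61; without shPLEKHA7 replicate 2 or 3 it had too few lanes above the limit, and neither member was above it in all 5 lanes. DESeq2 gave both an adjusted p of NA. The replicate block gave 0.49 for miR-125b and 0.52 for miR-99a (adjusted p of 0.449 and 0.32), and 22 probes called against 13; the labels do not say that numbers pair samples, and the replicate 3 minus replicate 1 differences of the groups correlated at r = 0.12 over 204 probes. Other counts of called probes were 20 under total counts, 6 under the deposited scaling, 33 under spike-in scaling, 7 by limma and 21 at an adjusted p under 0.1, and 0 to 18 with a sample left out (1 without NT replicate 1, 0 without NT replicate 3). The causes were not tested. Under limits chosen after the data were seen, miR-99a was detected in 4 lanes and miR-100 in 2 with the highest negative control as limit, and miR-125b in 2 and miR-100 in 0 with the mean plus 3 SD.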
